A study of Mus musculus with 2 samples.

Results

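The promoters of the cytosolic ribosomal protein genes of the mouse were examined for open chromatin in a mammary epithelial cell line, with and without transforming growth factor beta (TGFβ). The members were the protein-coding genes of GENCODE release M1 on the mm9 assembly whose symbol begins with Rpl or Rps and a number, together with Rplp0, Rplp1, Rplp2 and Rpsa. Of 148 protein-coding genes with such a symbol, 10 Rps6k kinase genes, 53 genes with a pseudogene-type symbol and 2 other single-exon genes were left out. The 83 members that remained were drawn from 19508 protein-coding genes with more than 1 exon on chromosomes 1 to 19 and X. They held 45 large subunit proteins, 31 small subunit proteins, 6 paralogues with an l after the number (Rpl3l, Rpl7l1, Rpl22l1, Rpl36al, Rpl39l and Rps27l) and Rps19bp1, which encodes a protein that binds Rps19 and is no part of the ribosome.

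NMuMG is a line of epithelial cells derived from the normal mammary gland of the mouse. The cells were deprived of serum and insulin for 6 h, after which 1 group received 5 ng/ml TGFβ1 and the other the solution that carries it (vehicle), both for 2 h. Both groups therefore share the starvation, and neither carries a genetic change that the labels name. DNaseI-seq was used, an assay that cuts accessible DNA in isolated nuclei and calls regions rich in the released short fragments as peaks. Each condition has 1 peak list, of 17784 intervals for vehicle and 22600 for TGFβ 2 h, so no spread between replicates can be given and no test was made between conditions.

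Each ribosome carries a single copy of most of these proteins, and growing cells make them in matched amounts. Their genes are dispersed over the genome, are transcribed in nearly every cell type, and lie mostly at CpG-rich promoters without a TATA box. Their mRNAs begin with a C followed by a run of pyrimidines, the terminal oligopyrimidine (TOP) tract, through which the mTOR pathway and the RNA-binding protein Larp1 control their translation when serum, insulin or amino acids change. TGFβ signals through Smad proteins and kinase cascades, arrests growth of many epithelial cells and changes their shape.

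A member was called open where at least 1 interval of the list overlapped the 1000 bp on either side of its annotated gene start. Where several did, the interval nearest the start stood for the gene. Intervals in brackets after a share are Wilson 95% intervals, and those after a median are 95% intervals from ranked values. Both cover the counting of genes, which are not replicates of a condition.

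The sequence features of these promoters are shown first. One string fixed for the search, TCTCGCGA, stood within 250 bases before to 50 bases after the gene start, on either strand, of 12 of the 83 members (14.5%, 8.47 to 23.6). It stood there in 296 of all 19508 genes (1.52%), and in 240 of the 8984 genes open in both lists (2.67%). The 12 members included Rpl7a, Rpl17, Rpl23a, Rpl26, Rpl27a, Rps3a, Rps6, Rps15a, Rps19 and Rps28. In Rpl17, Rpl26, Rps6 and Rps28 it was part of the 10-base palindrome that reads the same on both strands. Stretches of 30 bases around the match follow for 9 of them, on the gene's strand of mm9, with the match in capitals, to show the match in its surroundings.
Rpl7a, chr2:26766264-26766293, plus strand: agggcgcctgcTCTCGCGAtatctgcggcc
Rpl23a, chr11:77997098-77997127, minus strand: tatataagctaTCGCGAGActtttatgagc
Rpl26, chr11:68715033-68715062, plus strand: ctccgagacTCTCGCGAGAtctcgcggcaa
Rpl27a, chr7:116662677-116662706, plus strand: cgcctgctaccTCGCGAGActtcgtgagct
Rps3a, chr3:85946598-85946627, minus strand: gccagctagtgTCGCGAGAttcttaaagcc
Rps6, chr4:86503302-86503331, minus strand: gccggctgtTCTCGCGAGAacttagagcgc
Rps15a, chr7:125259709-125259738, minus strand: tgaccatgaagTCTCGCGAtagcgcttccg
Rps19, chr7:25669158-25669187, plus strand: gtatctcttggTCTCGCGAatgctaatgct
Rps28, chr17:33961488-33961517, minus strand: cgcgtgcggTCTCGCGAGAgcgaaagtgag
In 10 of the 12 members the match began between 41 bases before and 27 bases after the gene start, and in Rps19 it lay 221 bases before it.

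The ETS family string CCGGAAG was found in 24 members (28.9%, 20.3 to 39.4), against 11.9% of all genes and 21.0% of genes open in both lists. The YY1 string AAGATGG was found in 10 members (12%, 6.68 to 20.8), against 6.54% of all genes and 7.81% of genes open in both lists. The Sp family string GGGCGG was found in 41 members (49.4%, 38.9 to 59.9), close to the 47.9% of all genes and below the 68.8% of genes open in both lists. CCAAT, bound by NF-Y, was found in 33.7% of members, 37.8% of all genes and 38.7% of genes open in both lists. The E-box CACGTG, bound by Myc and Max, was found in 10.8% and 8.41%, and the NRF1 string GCGCATGC in 3.61% and 3.68%. The AP-1 string TGACTCA was found in 3 members (Rpl9, Rpl22 and Rps3), 3.61% of them against 4.41% of all genes and 3.02% of genes open in both lists. The Smad palindrome GTCTAGAC was found in none of the 83, against 0.185% of all genes. TATAAA stood 40 to 20 bases before the start of no member, of 2.19% of all genes and of 0.523% of genes open in both lists. Such matches describe the letters in these windows and not binding.

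A run of at least 8 pyrimidines on the gene's strand lay within 25 bases of the start in 27 members (32.5%, 23.4 to 43.2), against 19.3% of all genes. With the window widened to 100 bases, a choice made after the values were seen, 70 of 83 members held one (84.3%, 75.0 to 90.6), against 57.0% of all genes. A C followed by 4 pyrimidines stood exactly at the annotated start in 3 members and in 2.20% of all genes, so the annotated starts mostly do not fall on the first base of a TOP tract. Runs of the members with long ones are shown in 30-base stretches, with the run in capitals.
Rpl32, chr6:115758747-115758776, minus strand: cgccgccgCCTCTTCCTTCTTCCTCggcgc
Rpl11, chr4:135609339-135609368, minus strand: TCCCCCTCTCCCCTCgtttgtctgcctaga
Rpl14, chr9:120480618-120480647, plus strand: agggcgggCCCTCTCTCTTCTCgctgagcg
Rpl26, chr11:68715081-68715110, plus strand: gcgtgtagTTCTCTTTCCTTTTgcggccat
Rpl4, chr9:64021169-64021198, plus strand: tgacaagTCTTTCCTTTTCCTgtgggagca
Rps25, chr9:44215772-44215801, plus strand: gggCTTCCTTTTTTTCCgacatcttagcga
Rpl31, chr1:39424671-39424700, plus strand: cgccacaCCTCTTCCTCCTCgcctccccgt
The run was 17 bases long in Rpl32, 15 in the stretch shown for Rpl11, 14 in Rpl14, Rpl26, Rpl4 and Rps25, and 13 in Rpl31.

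The bases around member starts (500 on either side) had a median GC content of 56.8% (56.3 to 57.6), against 55.8% for all genes and 59.7% for genes open in both lists. CpG occurred at a median of 0.806 of the number expected from base content (0.762 to 0.837), against 0.60 for all genes and 0.762 for genes open in both lists. Members thus had CpG contents near those of open genes, with somewhat fewer G and C bases.

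Most ribosomal protein promoters were open, and they were the same ones in both conditions. In the vehicle list 73 of 83 members were open (88.0%, 79.2 to 93.3), against 48.1% of all genes. In the TGFβ 2 h list 73 of 83 were open (88.0%), against 48.3% of all genes. All 73 were open in both lists, where 46.1% of all genes were. No member was open in the vehicle list only, against 2.02% of all genes, and none in the TGFβ 2 h list only, against 2.29%. For both counts of 0 of 83 the upper Wilson limit is 4.42%, which lies above the background share. The large subunit had 43 of 45 genes open in each list (95.6%, 85.2 to 98.8) and the small subunit 25 of 31 (80.6%, 63.7 to 90.8), with overlapping intervals. Of the paralogues 4 of 6 were open, and so was Rps19bp1.

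**Figure D1:**
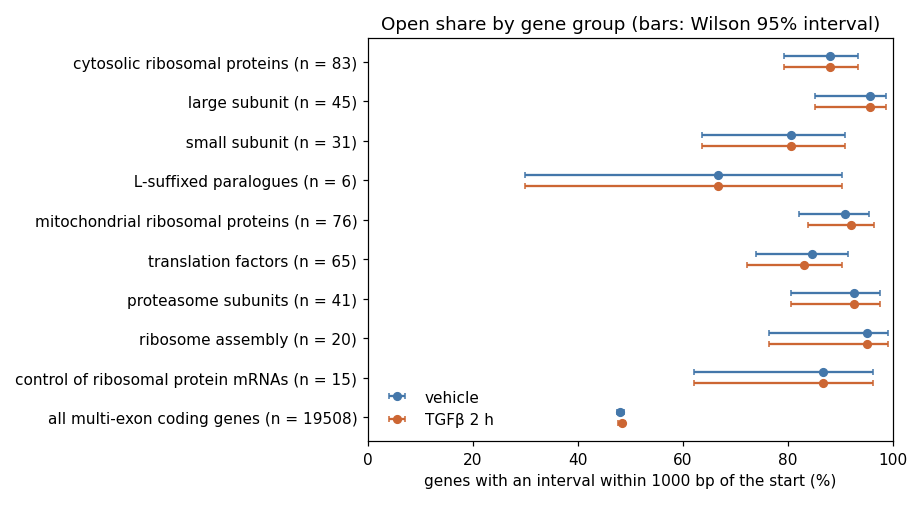
Share of genes with a DNaseI interval within 1000 bp of the gene start (percent, x axis) in the vehicle (blue) and TGFβ 2 h (orange) lists, by gene group (y axis), with Wilson 95% intervals over genes as bars. The 83 cytosolic ribosomal protein genes sit at 88.0% in both lists, beside 48.1% and 48.3% for all 19508 genes, and the other translation and proteasome groups lie between 83.1% and 95%.

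A high open share was found in other gene groups that most cells use as well. Of 76 mitochondrial ribosomal protein genes 90.8% (82.2 to 95.5) were open in the vehicle list and 92.1% in the TGFβ 2 h list. The values were 84.6% and 83.1% for 65 translation initiation and elongation factor genes, and 92.7% in both lists for 41 proteasome subunit genes. Of 20 genes for ribosome assembly 19 were open in both lists, the exception being Nop10, a protein of H/ACA ribonucleoproteins. Of 15 genes that control ribosomal protein mRNAs, such as Larp1, Mtor and Rps6kb1, 13 were open in both lists, the exceptions being Larp4 and Cnbp. As a check of the cell type, Cdh1, Krt8 and Krt18 were open among 10 epithelial markers, in both lists, while Epcam, Cldn3, Cldn4, Cldn7, Esrp1, Ovol1 and Grhl2 had no interval within 1000 bp of the start. Of 6 mesenchymal markers Vim, Zeb1, Cdh2 and Fn1 were open in both lists, and none of 4 blood and vessel markers found in the annotation, nor Myod1 or Alb, was open in either.

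The 10 members without an interval in either list included Rpl3, Rpl15, Rpl3l, Rpl39l, Rps2, Rps10, Rps21 and Rps29. Rpl3l is made mainly in striated muscle and Rpl39l in testis, and the other 8 of the 10 encode proteins found in the ribosomes of most cells. Rps10 and Rps2 lay just outside the window. The nearest interval to the Rps10 gene start was 1029 bp away in the vehicle list and 1028 bp in the TGFβ 2 h list, and that to Rps2 was 1477 and 1503 bp away. Both genes have further transcripts that begin inside these intervals. At chr17:27771870-27772545 the Rps10 interval was 676 bp wide in the vehicle list, and it was 756 bp wide in the TGFβ 2 h list. At chr17:24856538-24857160 the Rps2 interval was 623 bp wide with vehicle, and it was 615 bp wide with TGFβ. Counted from the start of any transcript, 75 of 83 members were open in each list (90.4%), against 50.9% and 51.5% of all genes.

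For 7 of the 8 members besides Rps10 and Rps2 the nearest interval lay over 5 kb from any annotated start. Rpl15, a large subunit protein, had its nearest interval 31689 bp from the gene start in the vehicle list and 31826 bp in the TGFβ 2 h list. For Rps29 of the small subunit these distances were 8997 and 9280 bp. Rpl3, which lies near the catalytic centre of the large subunit, had its nearest interval 7438 and 7418 bp away. For Rps21 the distances were 5809 and 5820 bp. Rpl3l had intervals 3244 and 3209 bp away, and Rpl39l had none nearer than 116470 and 116327 bp. Distances in the 2 lists differed by at most 283 bp, so these promoters were without a called interval alike in both conditions.

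Words of 32 bases with a second exact copy on the 20 chromosomes, a rough measure of where short reads cannot be placed, made up a median of 5.86% of all words within 1000 bp of the starts of the 10 (range 0 to 21.4), against 7.46% at the 73 open members (range 0 to 31.2). The ranges overlap. The median GC content was 53.7% (49.7 to 58.7) around the 10 and 56.9% around the 73. The words counted lie on both sides of the start, and this check covers exact copies only. Whether reads could be placed at these promoters was not tested. The promoters of Rps21 and Rpl3 follow as the 200 bases before the gene start, with matches to the strings searched in capitals, since they hold the same kinds of strings as open members.
Rps21, chr2:179991882-179992081, plus strand: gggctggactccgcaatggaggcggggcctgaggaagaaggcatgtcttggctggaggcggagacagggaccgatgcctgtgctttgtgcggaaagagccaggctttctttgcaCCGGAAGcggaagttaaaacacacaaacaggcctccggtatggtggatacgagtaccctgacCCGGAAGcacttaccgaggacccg
Rpl3, chr15:79913837-79914036, minus strand: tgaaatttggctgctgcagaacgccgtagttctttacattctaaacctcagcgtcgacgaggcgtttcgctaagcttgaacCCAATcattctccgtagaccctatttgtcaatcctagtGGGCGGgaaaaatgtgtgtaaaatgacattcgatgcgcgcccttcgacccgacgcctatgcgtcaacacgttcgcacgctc
The Rps21 promoter held CCGGAAG at more than 1 place, and the Rpl3 promoter held CCAAT and GGGCGG. Over all 24 members with CCGGAAG 20 were open in both lists (83.3%), as were 81.4% of all genes with it. Over the 12 members with TCTCGCGA 11 were open, as were 81.1% of all genes with it. Rpl3l and Rps10 held none of the strings searched. CpG occurred at 0.146 of the expected number around the start of Rps2, 0.185 at Rpl3l and 0.292 at Rps10, below the lowest of the 73 open members (0.421). The rest of the 10 lay between 0.548 and 0.950, within the range of the 73. The median was 0.743 over the 10 and 0.814 over the 73.

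At the 73 open members the median interval was 876 bp wide with vehicle (795 to 935), below the 946 bp (938 to 953) of the 8984 genes open in both lists. With TGFβ it was 801 bp (733 to 844), against 821 bp (815 to 828) for these genes. The widths ran from 339 to 1639 bp with vehicle and from 375 to 1602 bp with TGFβ, and ranks were largely kept between lists (Spearman's rho 0.77 over the 73 members and 0.69 over all genes, given as a description). The interval held the annotated start in 72 of 73 members in each list (98.6%, 92.6 to 99.8), against 93.9% and 92.6% of all genes open in both. The exception was Rpl35, whose interval began 15 bp downstream of the start with vehicle and 154 bp downstream with TGFβ. In all 73 members the intervals of the 2 lists overlapped each other, as they did in 99.3% of all genes open in both. The peak score, which stops at a ceiling of 1000, was at that ceiling in 67 members with vehicle (91.8%) and in 63 with TGFβ (86.3%), against 85.1% and 80.6% of all genes open in both, so the score could not rank most members.

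**Figure D2:**
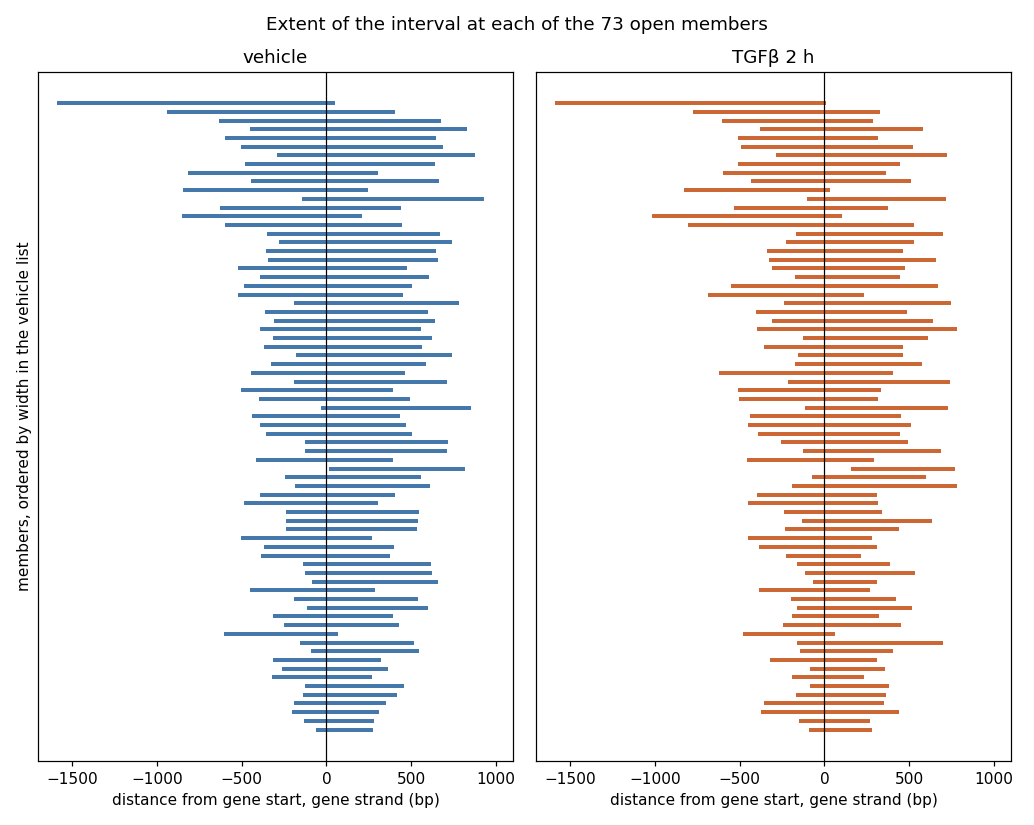
Extent of the interval at each of the 73 open members (1 bar per member, ordered by vehicle width, widest at the top) along the gene's strand, in bp from the gene start (x axis, vertical line at 0), in the vehicle list (left, blue) and the TGFβ 2 h list (right, orange). Nearly all bars cross the start, and the topmost, Rpl7, reaches 1589 bp upstream in both lists.

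The widest vehicle intervals were those of Rpl7 (1639 bp), Rpl36al (1342 bp), Rpl7a (1308 bp), Rpl34 (1275 bp) and Rpl31 (1240 bp). The Rpl7 interval was 1602 bp wide with TGFβ and lay almost wholly upstream, where the divergent gene Rdh10 starts 1112 bp away. Rpl36al starts 75 bp from the divergent gene Mgat2, and Rpl7a, in the surfeit cluster, 87 bp from Med22. The narrowest vehicle intervals were those of Rpl4 (339 bp), Rpl36 (412 bp), Rpl14 (512 bp), Rpl28 (542 bp) and Rpl13 (552 bp). Rpl4 had a further interval in the window, and 1087 bp of its window were open with vehicle and 1060 bp with TGFβ. In all, 3 members with vehicle (4.11%) and 6 with TGFβ (8.22%) had more than 1 interval in the window, against 3.53% and 5.77% of all genes open in both lists. Wider vehicle intervals had higher GC content, with a rho of 0.36 over the 73 members, given as a description over genes that share a library.

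The interval was narrower with TGFβ at most members, with a share and a median ratio near those over all genes. The difference between members and all genes was not tested. It was narrower in 56 of 73 members (76.7%, 65.8 to 84.9), against 77.1% of the 8984 genes open in both lists. The median ratio of widths, TGFβ 2 h over vehicle, was 0.884 (0.851 to 0.947) for members and 0.885 (0.880 to 0.889) for all genes. Narrowing by over 1.25-fold was found in 21 members (28.8%, 19.7 to 40.01), against 31.0% of all genes, and widening by over 1.25-fold in 4 members (5.48%, 2.15 to 13.3), against 3.36%. Shares of members thus lay near the background in each of these counts. The intervals of the TGFβ 2 h list were narrower over the whole genome, with a median of 621 bp against 770 bp, and held fewer rows of the file each, 3.03 against 3.96 on average. Members had fewer rows with TGFβ in 40 of 73 cases (54.8%) and more in 15 (20.5%), against 57.2% and 16.5% of all genes open in both lists. With 1 list per condition, the treatment and any other difference between the libraries cannot be told apart. One such difference is read depth, as the reporting summary of the study lists more reads for the vehicle library. By read signal, the paper reports a broad gain in accessibility with TGFβ at gene starts and enhancers, seen by DNaseI-seq as well. The width of a called interval is a different measure from that signal. Signal at the members was not tested, so a narrower interval is not given here as lower accessibility.

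**Figure D3:**
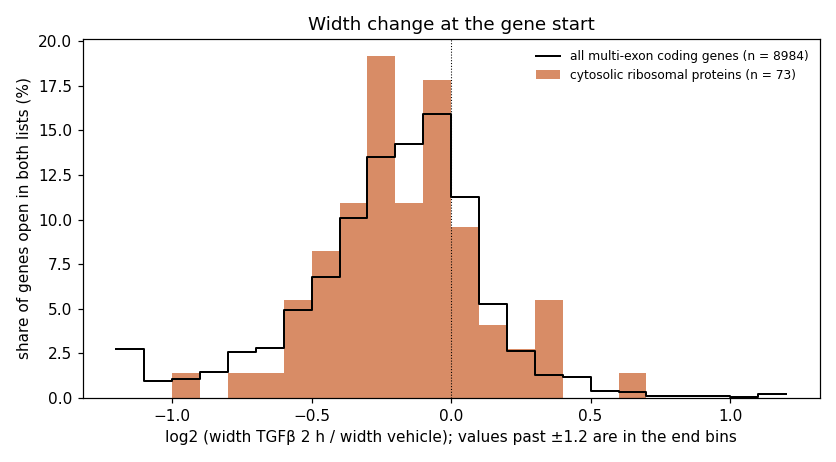
Distribution of the width change at the gene start, as log2 of width with TGFβ 2 h over width with vehicle (x axis; dotted line at no change), as the share of genes open in both lists (percent, y axis), for the 73 ribosomal protein genes (bars) and all 8984 genes (black outline). Both lie mostly below 0, with median ratios of 0.884 and 0.885.

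The largest decreases in width, listed by a rule on the ratio and so given with no test, were at large and small subunit genes alike. Rpl32 went from 742 bp with vehicle to 380 bp with TGFβ, a ratio of 0.512. Rps16 went from 760 to 445 bp (0.586) and Rps20 from 996 to 615 bp (0.617). Rpl31 went from 1240 to 827 bp (0.667), and Rpl22, which has the paralogue Rpl22l1, from 919 to 622 bp (0.677). In Rpl22 and Rps20 the TGFβ 2 h list held 2 intervals within the bounds of the single vehicle interval. With intervals closer than 1000 bp joined, the ratio was 0.894 for Rpl22 and 0.797 for Rps20. Fewer members had a wider interval with TGFβ. Rpl14 went from 512 to 811 bp, a ratio of 1.58, and Rpl28 from 542 to 709 bp (1.31). Rps24, mutated in some patients with Diamond-Blackfan anaemia, went from 670 to 861 bp (1.29). Rpl10a went from 1043 to 1331 bp (1.28), and Rps27a, which is made as a fusion with ubiquitin, from 945 to 1178 bp (1.25). Rpl14 and Rpl28 were also among the 5 narrowest with vehicle, and that width is the denominator of their ratio.

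**Figure D4:**
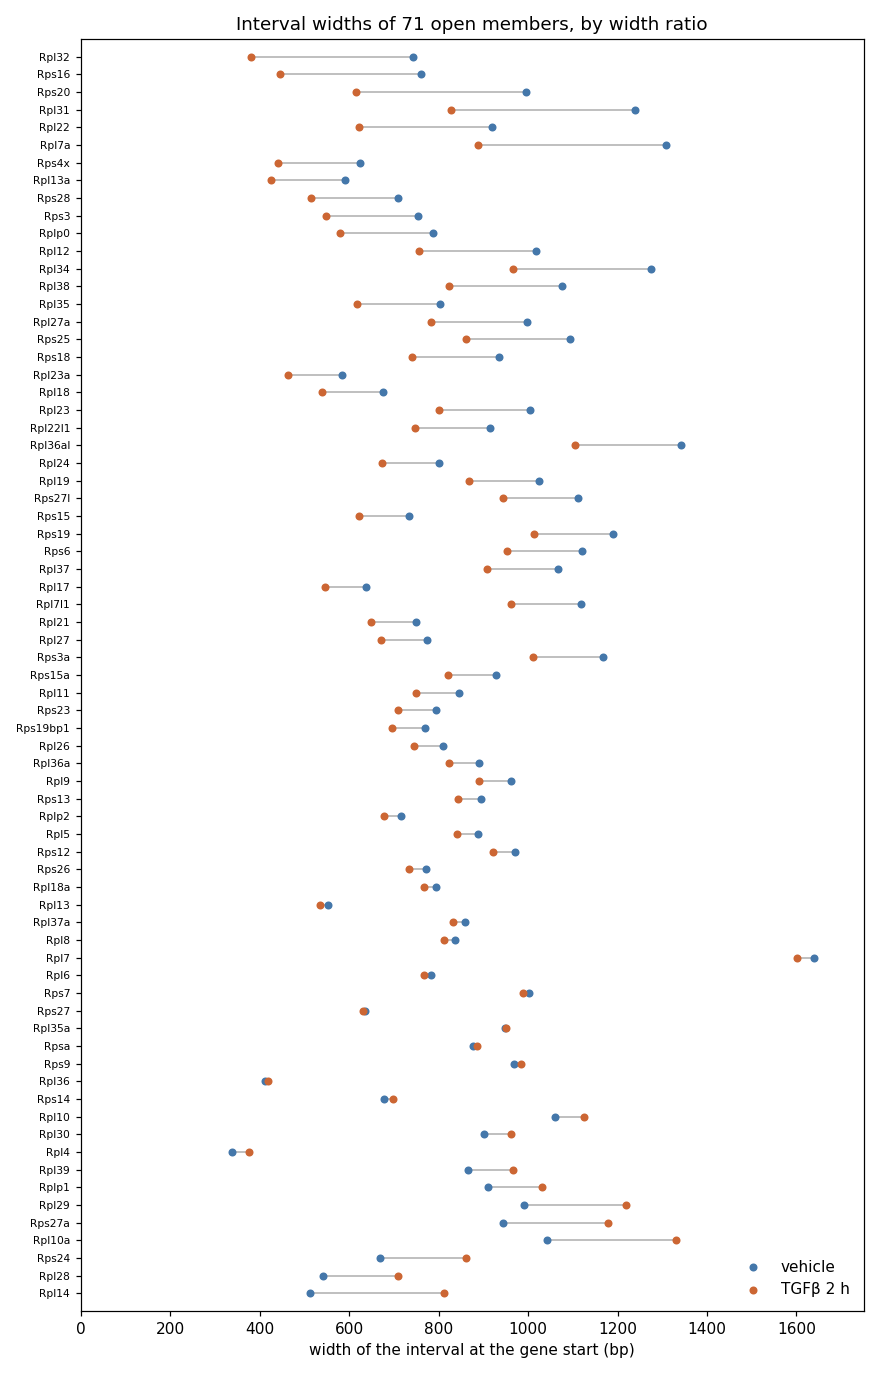
Width in bp (x axis) of the interval at the start of 71 of the 73 open members (y axis, ordered by the ratio of widths) with vehicle (blue) and TGFβ 2 h (orange), joined by a grey line. The orange point lies left of the blue one in 55 members, from Rpl32 (742 to 380 bp) at the top, and right of it in 16, down to Rpl14 (512 to 811 bp).

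The 200 bases before the start are shown for both ends of this order, with matches to the strings in capitals, so that the promoters can be set side by side.
Rpl32, chr6:115758766-115758965, minus strand: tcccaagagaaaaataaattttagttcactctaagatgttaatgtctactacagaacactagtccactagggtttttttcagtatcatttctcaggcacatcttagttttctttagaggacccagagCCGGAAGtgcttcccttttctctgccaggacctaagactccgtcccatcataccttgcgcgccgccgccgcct
Rps16, chr7:29135471-29135670, plus strand: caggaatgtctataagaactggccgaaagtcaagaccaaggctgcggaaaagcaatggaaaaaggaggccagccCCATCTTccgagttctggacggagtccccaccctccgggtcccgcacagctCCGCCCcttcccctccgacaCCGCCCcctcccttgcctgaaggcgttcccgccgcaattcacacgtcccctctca
Rpl28, chr7:4744276-4744475, plus strand: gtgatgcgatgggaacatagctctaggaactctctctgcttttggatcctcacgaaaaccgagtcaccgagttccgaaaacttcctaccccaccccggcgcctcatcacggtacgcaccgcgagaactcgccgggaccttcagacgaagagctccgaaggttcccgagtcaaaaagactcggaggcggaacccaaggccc
Rpl14, chr9:120480432-120480631, plus strand: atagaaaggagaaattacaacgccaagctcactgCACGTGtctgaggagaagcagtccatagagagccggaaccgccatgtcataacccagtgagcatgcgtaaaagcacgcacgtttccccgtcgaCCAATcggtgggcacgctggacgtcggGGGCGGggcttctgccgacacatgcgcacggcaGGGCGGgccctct
Rpl32 held CCGGAAG, Rps16 held AAGATGG (read as CCATCTT) and GGGCGG, Rpl14 held the E-box, the NF-Y string and GGGCGG, and Rpl28 held none of the 9 strings in this stretch. GGGCGG was thus found at both ends of the order.

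Width change by promoter string is given as counts and medians. All 11 open members with TCTCGCGA were narrower with TGFβ, with a median ratio of 0.852, where 84.2% of the 240 open genes with it were, with a median of 0.857. Of 20 open members with CCGGAAG 18 were narrower (median ratio 0.860), against 78.1% of all open genes with it. Of 37 with GGGCGG 30 were narrower (81.1%, median ratio 0.856), against 78.3% of all open genes with it (0.883). With CCAAT 15 of 22 open members were narrower (68.2%), against 77.1% of all open genes with it, with CACGTG 5 of 7 (71.4%), against 76.8%, and with AAGATGG 8 of 10 (80.0%), against 77.1%. The 3 members with the AP-1 string were narrower, as were 76.8% of the 271 open genes with it. Rps3 went from 755 to 548 bp and Rpl9 from 961 to 891 bp, beside Rpl22 above. At Rps3, as at Rpl22, the TGFβ 2 h list held 2 intervals in the window. The open bases in the Rps3 window were 755 with vehicle and 721 with TGFβ. By width with vehicle, all 12 members over 1073 bp were narrower with TGFβ, against 89.6% of all genes of that width. Among members of 835 bp or less 25 of 32 were narrower (78.1%), against 62.3%, and among those between 19 of 29 (65.5%), against 79.4%. Vehicle width is also the denominator of the ratio, so these shares are not independent of the grouping.

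The decrease in width lay mainly on the downstream side. The downstream edge was nearer the start with TGFβ in 52 of 73 members (71.2%, 60.0 to 80.3), against 70.6% of all genes open in both lists. The upstream edge was nearer in 40 members (54.8%, 43.4 to 65.7), against 67.1% of all genes. The upstream edge moved by a median of -4 bp (-20 to 7) in members and -26 bp (-28 to -24) in all genes, and the downstream edge by -60 bp (-96 to -20) and -43 bp (-46 to -41), where a negative value is towards the start. Summed over the 73 members, the upstream edges moved by -1233 bp and the downstream edges by -5129 bp. Over all 8984 genes the sums were -506305 and -727756 bp, so the downstream edges moved more there too. Upstream reach was 344 bp with vehicle and 310 bp with TGFβ at the median, and downstream reach 534 and 443 bp. In the 61 members with no other coding gene start within 1000 bp, a subset added after the values were seen, the upstream edge was nearer in 54.1% and the downstream edge in 70.5%, against 65.9% and 70.4% of all such genes. The difference between members and other genes at the upstream edge was not tested.

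**Figure D5:**
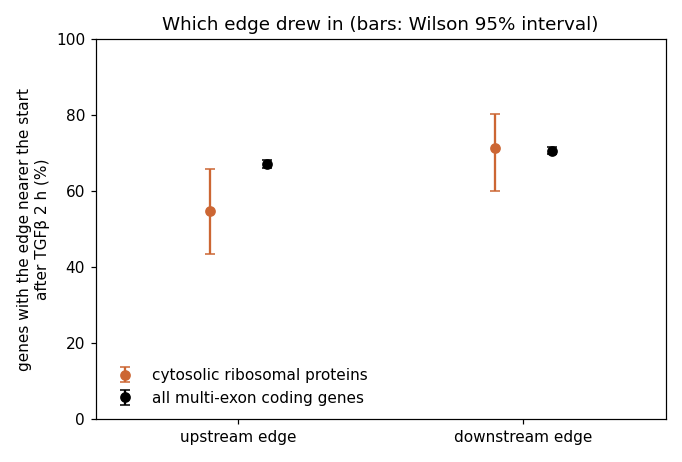
Share of genes (percent, y axis) whose upstream or downstream interval edge lay nearer the gene start with TGFβ 2 h than with vehicle, for the 73 open ribosomal protein genes (orange) and all 8984 genes open in both lists (black), with Wilson 95% intervals over genes. The downstream shares are 71.2% and 70.6% and the upstream shares 54.8% and 67.1%.

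Besides Rpl22, narrower as given above, 10 members were picked for known roles. Of these, 7 had a narrower interval with TGFβ, beside 77.1% of all genes open in both lists. The stalk proteins, which recruit elongation factors, differed among themselves. Rplp0 was 787 bp wide with vehicle and 579 bp with TGFβ, Rplp2 716 and 678 bp, and Rplp1 911 and 1031 bp. Rpsa, also known as a laminin receptor, was 876 and 886 bp wide. Rpl5 and Rpl11, which with 5S rRNA bind Mdm2 when assembly is disturbed, went from 887 to 840 bp and from 845 to 750 bp. Rps6, whose protein is phosphorylated by S6 kinases downstream of mTOR, went from 1120 to 954 bp (ratio 0.852), and Rps19, the gene most often mutated in Diamond-Blackfan anaemia, from 1190 to 1013 bp (0.851). Rps14 was 677 and 698 bp wide. Rpl13a, part of a complex that silences inflammatory mRNAs, went from 590 to 425 bp.

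The 4 open paralogues were all narrower with TGFβ, where 77.1% of all genes open in both lists were. The ratios of the paralogues ran from 0.816 to 0.860. Rpl22l1 went from 915 to 747 bp, Rpl36al from 1342 to 1106 bp, Rps27l from 1112 to 943 bp and Rpl7l1 from 1119 to 962 bp. Rps19bp1 went from 770 to 695 bp. The median ratio was 0.922 (0.841 to 0.971) for 43 large subunit genes and 0.884 (0.849 to 0.986) for 25 small subunit genes, with overlapping intervals. The other groups had median ratios of 0.889 for mitochondrial ribosomal proteins, 0.864 for translation factors, 0.902 for ribosome assembly, 0.869 for control of ribosomal protein mRNAs and 0.984 (0.913 to 1.03) for proteasome subunits. Among single genes of these lists, Myc, which drives transcription of many ribosome genes, went from 1004 to 434 bp, Eif4ebp1, a translation repressor inactivated by mTOR, from 1622 to 754 bp, and Tsr1, a small subunit assembly factor, from 727 to 341 bp, while Mtor was 769 and 792 bp wide and Larp1 793 and 802 bp. These 5 were chosen after their values were seen.

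Another coding gene starts within 1000 bp of 14 members, so that the window holds both starts. They included Rps28 with Ndufa7 (29 bp), Rps27 with Rab13 (44 bp), Rpl9 with Lias (54 bp), Rpl12 with Lrsam1 (55 bp) and Rps25 with Trappc4 (166 bp), all divergent. Of the 14, 12 were open in both lists, the exceptions being Rpl15 with Nkiras1 (255 bp) and Rps2 with Rnf151 (59 bp). With vehicle 48.1% of all genes were open, and 43.5% of those with no other coding start within 1000 bp. Genes with such a neighbour were thus open more often in general. The 12 had a median width of 946.5 bp with vehicle and 809 bp with TGFβ, with a ratio of 0.808 (0.725 to 1.00), against 0.888 (0.852 to 0.949) for the 61 open members without such a neighbour. The median ratio was 0.885 both over all genes and over all those without such a neighbour.

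Around the members, at 1 to 10 kb from the start, the vehicle list held 40 intervals and the TGFβ 2 h list 50. These were 0.482 and 0.602 intervals per member, above the 0.236 and 0.286 per gene over all genes, and the difference was not tested. At 6 members (7.23%) at least 1 TGFβ 2 h interval overlapped no interval of the vehicle list, against 7.75% of all genes, and at 1 member (1.2%) an interval was found with vehicle only, against 3.75%. The TGFβ 2 h intervals lay near Rpl27a (2 intervals, 82 and 73 bp wide), Rps3, Rps9, Rps21, Rps24 and Rps27. Their scores ran from 558 at Rps21 to 815 at Rps9, in a list whose lowest score is 540. These intervals included one of 704 bp at chr7:3645706-3646409, 9186 bp upstream of Rps9, and one of 385 bp at chr14:25305987-25306371, 3532 bp upstream of Rps24. At Rps21, a member without a promoter interval, an interval of 863 bp lay 7534 bp upstream at chr2:179983686-179984548. The interval with vehicle only was at chr15:5057703-5058195, 8418 bp upstream of Rpl37. The shares of members with an interval in 1 list only thus lay near or below the background.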

How the data were processed

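The authors mapped DNaseI-seq reads to mouse mm9 and called peaks. Their methods refer to the ATAC-seq pipeline with options for DNaseI that are not given in the sources used here, and the submitters' processing notes name MACS2 2.1.2. Each deposited list gives chromosome, start, end and a whole-number score from 540 to 1000. It repeats an interval over several rows, 70449 rows for vehicle and 68542 for TGFβ 2 h, and each distinct interval was taken once, since the files do not say what the repeats mark. The score was used to filter within a list and to count intervals at its ceiling, and whether its scale is the same in both lists is not stated.

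Samples were grouped by title. The submitters mention duplicates, yet a single list stands for each condition, and separate replicate lists were not analysed here. Read depth is not in the lists, and the study's reporting summary lists more reads for the vehicle library. Intervals and gene starts (GENCODE M1) were compared with a minimum overlap of 1 bp with numpy 2.4.6 and scipy 1.17.1. Coordinates are 1-based on mm9. In each list 1 interval ran past the end of its chromosome. Sequence was read from the mm9 genome, on the gene's strand. No sequence is printed for members on 1 chromosome. Values of some single members are not reported here, while all members are in the counts and medians. The computation gave back all 8 values when tested on simulated intervals at 81 gene starts.

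The members and lists were chosen with earlier results of these data known. The genes named are members open in neither or 1 list, the 5 largest and 5 smallest width ratios, the 5 widest and 5 narrowest vehicle intervals, the stalk proteins, Rpsa, the paralogues, Rps19bp1, and Rps19, Rpl5, Rpl11, Rps6, Rps14, Rpl13a and Rpl22. Other members are named for their sequence, neighbours, chromosome or edges, and were chosen after their values were seen. The surroundings at 1 to 10 kb, the wider pyrimidine window, the copies of 32-base words and the edges in subsets of members were added after the data were seen. Windows, the start used, filters on width and score, joining, the choice of interval and the choice of members were varied.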

Additional observations from a re-analysis of the deposited data

How the results depend on the processing

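Each of the 8 main values was recomputed under 13 alternatives, 104 values in all, of which 101 lay inside the 95% interval first given, or, for the counts of members open in 1 list, within 1.5 times the first count. Some alternatives could not move some values. Taking the widest interval, counting open bases or joining intervals left the open calls unchanged by construction. Cutting the TGFβ 2 h list left the vehicle share and width as they were. The open share ranged from 81.9% to 90.4% with vehicle and from 83.1% to 90.4% with TGFβ 2 h, the median width from 858 to 890 bp and from 782 to 821 bp, the median ratio from 0.884 to 0.892 and the share of narrower members from 75.0% to 80.0%. The counts of members open in 1 list only depended on the score. With the TGFβ 2 h list cut to as many intervals as the vehicle list, 1 member (Rpl13a) was open in the vehicle list only, as were 632 of all 19508 genes. With only intervals at or above the median score of their list, 3 members (Rpl13a and Rpl38 among them) were open in the vehicle list only and 4 (Rpl13, Rpl28, Rpl31 and Rpl35) in the TGFβ 2 h list only, against 525 and 551 of all genes, and the cause was not tested. Of 98 recomputed width ratios of the 10 members at either end of the order, none changed direction and 1 fell from past 1.25-fold to within it, that of Rpl22 with neighbouring intervals joined (0.894), while that of Rps27a was just under this fold throughout. No paired analysis was possible because vehicle and TGFβ 2 h have 1 list each. Depth limits these results in that the lists give no read counts, and a promoter without an interval may hold signal below the threshold of its list. Widths of called intervals depend on that threshold as well as on the signal. A gene start in the annotation can lie away from the start used in these cells.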

Other observations

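Many ribosomal protein genes hold small nucleolar RNA genes in their introns, whose products guide the modification of rRNA. Of the 83 members 30 held at least 1 annotated snoRNA gene, and Rpl4 held 5. The 30 hosts were open in 27 cases in each list (90.0%, Wilson 95% interval 74.4 to 96.5) and the other 53 in 46 cases (86.8%, 75.2 to 93.5). Of all genes 48.1% were open with vehicle and 48.3% with TGFβ 2 h. The median width of host intervals was 866 bp with vehicle and 768 bp with TGFβ 2 h, and that of the others 900.5 and 817 bp. The median ratio was 0.867 (0.784 to 0.967) in hosts and 0.886 (0.848 to 0.971) in the others, against 0.885 over all genes. The 4 members whose interval was wider by over 1.25-fold with TGFβ (Rpl14, Rpl28, Rps24 and Rpl10a) held no annotated snoRNA gene, like 46 of the 73 open members, and 3.36% of all genes open in both lists were wider by that fold. All 4 members on the X chromosome (Rpl10, Rpl36a, Rpl39 and Rps4x) were open in both lists, where 46.1% of all genes were. Rps4x went from 624 to 440 bp and Rpl36a from 890 to 823 bp, while Rpl10 went from 1061 to 1124 bp and Rpl39 from 866 to 966 bp. Over all genes open in both lists 77.1% were narrower.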
